A study of Mus musculus with 32 samples.

Results

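The broad regions described here are 308 wide peaks of the R-loop assay MapR in mouse embryonic stem cells. They were selected on peak width and overlap: each is a peak of at least 1000 bp in wild-type (WT) replicate 1 that shares at least 1 bp with a peak in WT replicate 2 and in both replicates of the H1 knockout, and that meets no peak of the nuclease-only controls. Of the 22336 peaks of WT replicate 1, 1077 were that wide, and 1035 of those met no control peak. A further 40 wide peaks present in all 4 libraries were left out because they met a control peak. Width and presence therefore chose the regions and are given below as description, with no test.

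The series set WT cells beside a line named H1-TKO, in which linker histone H1 is knocked out. As background, the line lacks 3 of the H1 genes and still carries the others. All cells were grown with serum and LIF, the cytokine that keeps embryonic stem cells undifferentiated, and no further treatment separates the groups. MapR was done on 2 libraries per genotype with a fusion of catalytically inactive RNase H and micrococcal nuclease (RNH), and on 1 library per genotype with the nuclease alone. Chromatin-bound RNA (cheRNA), which stays with the insoluble chromatin pellet, enters through a table that the authors deposited, which lists transcripts by their change between genotypes, from 3 samples each. No label says whether replicates were separate cultures, so the spread between libraries may be technical.

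An R-loop is a stretch where newly made RNA pairs with its DNA template and leaves the other DNA strand single. R-loops form behind RNA polymerase, most readily where the transcript is rich in G, and CpG island promoters are a typical place. RNase H binds the RNA-DNA hybrid, so the tethered nuclease releases DNA near it. Linker histone H1 binds the nucleosome where DNA enters and leaves it, and compacts chromatin. No second assay of RNA-DNA hybrids was analysed here, and regions are called R-loop regions only in the sense of this assay.

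The 308 regions were of 3 kinds. The first comprised 260 gene promoters, that is, regions within 1 kb of an annotated transcription start. The second comprised 29 tandem arrays of a repeat unit of 212 bp, of which 18 were intergenic, 10 lay in introns and 1 lay near the start of Reg2. The third comprised 19 regions elsewhere, with 9 in introns, 8 between genes and 2 touching an exon. The array class was defined after the sequences had been seen, as at least 60% of bases equal to the base 212 bp further along.

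Sequence is shown from 4 promoters among the 10 regions whose smallest fold enrichment over the 4 libraries was highest. The following 200-base stretches lie within the peaks, outside annotated exons and on the gene's strand, and are taken from the RefSeq genome of build GRCm38 (mm10). CpG dinucleotides are in capitals. Stxbp5l, which encodes a syntaxin-binding protein, is shown at chr16:37384963-37385162 (minus strand). Sfr1, a partner of the recombinase pathway, is shown at chr19:47731482-47731681 (plus strand). The small GTPase gene Rab39 is shown at chr9:53706233-53706432 (minus strand), and the synaptotagmin gene Syt14 at chr1:193035776-193035975 (minus strand).
Stxbp5l: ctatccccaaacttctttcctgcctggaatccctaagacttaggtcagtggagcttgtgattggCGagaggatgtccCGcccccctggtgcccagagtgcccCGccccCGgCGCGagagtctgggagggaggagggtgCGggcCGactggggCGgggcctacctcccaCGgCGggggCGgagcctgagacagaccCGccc
Sfr1: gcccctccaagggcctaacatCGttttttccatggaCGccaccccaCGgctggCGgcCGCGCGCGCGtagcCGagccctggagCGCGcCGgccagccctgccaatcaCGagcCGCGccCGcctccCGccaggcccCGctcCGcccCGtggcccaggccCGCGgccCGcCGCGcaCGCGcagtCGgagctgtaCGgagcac
Rab39: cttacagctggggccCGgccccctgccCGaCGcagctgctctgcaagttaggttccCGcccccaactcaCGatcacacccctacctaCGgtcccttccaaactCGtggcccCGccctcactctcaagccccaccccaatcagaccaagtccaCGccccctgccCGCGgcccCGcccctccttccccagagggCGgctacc
Syt14: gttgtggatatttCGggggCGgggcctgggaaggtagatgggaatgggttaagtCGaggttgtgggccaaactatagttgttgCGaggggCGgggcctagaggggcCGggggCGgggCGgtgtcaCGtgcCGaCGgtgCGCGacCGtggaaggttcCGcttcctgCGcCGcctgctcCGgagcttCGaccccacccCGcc
These stretches hold 13, 30, 13 and 20 CpG dinucleotides, in the order shown, with a GC content of 67.5% to 77.0%.

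The arrays share a nearly identical unit. A 30-base window of it, bases 139 to 168 of the unit as read here, is shown from the 4 widest arrays, and capitals mark bases that differ from the first. This window was picked because it holds the most positions that differ among these 4 units, so it overstates how much the unit varies. The windows lie at chr12:62549476-62549505 (plus strand, 14098 bp from the nearest start, that of Gm48368), chrX:14571955-14571984 (minus strand, near Gm14505), chr13:26441545-26441574 (minus strand, near Gm11353) and chr9:95292912-95292941 (minus strand, near Chst2).
Gm48368: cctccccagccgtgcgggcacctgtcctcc
Gm14505: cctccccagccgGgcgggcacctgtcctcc
Gm11353: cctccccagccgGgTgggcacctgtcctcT
Chst2: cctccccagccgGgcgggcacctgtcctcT
Over the whole unit these arrays differed from the first at 2, 5 and 4 of 212 bases. Of the other 28 arrays, all held a window at least 93.4% identical to the first array's unit, with a median of 98.3%. As background, the promoters of young mouse L1 retrotransposons are built of tandem units of about this length. The annotation used here names no repeats, so the arrays are called by their unit.

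Among the remaining 19 regions, 4 introns held shorter tandem repeats. In an intron of Usp6nl, a GTPase-activating protein, 92.3% of the peak's bases equalled the base 31 bp further along. In Stam2, an adaptor of endosomal sorting, 95.4% equalled the base 54 bp further along. Repeats of 56 bp in Atp6v1h, a subunit of the proton pump of lysosomes, and of 48 bp in the adenylate kinase gene Ak5 were less uniform (67.8% and 66.9%). The first 2 units are shown on the plus strand, at chr2:6327199-6327229 and chr2:52697281-52697334, with CpG in capitals.
Usp6nl: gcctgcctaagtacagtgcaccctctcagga
Stam2: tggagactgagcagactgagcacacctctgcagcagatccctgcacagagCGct
The sources used here do not say how reads matching several copies of a repeat were assigned.

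The broad regions were set beside 3 other groups of WT replicate 1 peaks: 1277 narrower peaks found in all 4 libraries, 727 equally broad peaks missing from at least 1 of the other libraries, and all 21929 control-free peaks. These are counts over regions, which are not replicates, and carry no test. Promoters made up 84.7% of the broad regions (261 of 308, the region near Reg2 included). The share was 75.6% in narrower peaks of all 4 libraries, 47.5% in broad peaks not in all 4, and 49.3% in all peaks. A coding start on each strand within 1 kb is the layout of a divergent gene pair. It occurred in 53 broad regions (17.2%), against 10.7%, 7.29% and 4.99% in those groups. Without arrays the shares were 18.996% in broad regions and 10.9%, 11.9% and 5.37% in those groups. The difference from the other broad peaks was thus smaller. The 1 kb is counted from the edges of a peak, so a wider peak takes in a longer stretch. Median width was 1127.5 bp in broad regions, against 690, 1121 and 467 bp. The part of width in these shares was not tested. Divergent pairs among the named regions included Ints13 with Fgfr1op2, Kbtbd3 with Aasdhppt, Pigp with Ttc3, Agpat1 with Rnf5, and Ddx5 with Cep95.

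**Figure D1:**
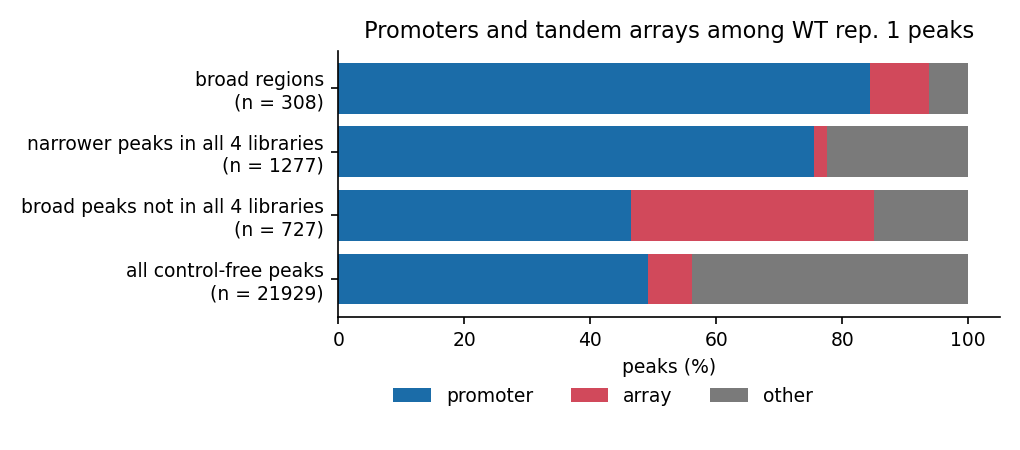
Share of peaks of WT replicate 1 (horizontal axis, percent) that are promoters, 212 bp arrays or other places, for 4 groups of peaks. Promoters take 84.4% of the broad regions when arrays are counted apart, and arrays take 9.42% of them against 38.5% of the broad peaks not in all 4 libraries.

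Arrays were more frequent among the broad peaks that were not found in all 4 libraries. Of those 727 peaks, 280 were arrays by the same self-match at 212 bp, and all 280 had a peak in TKO replicate 1. In 187 of them WT replicate 1 and TKO replicate 1 were the libraries with a peak, and 93 were found in 3 libraries. Without arrays, promoters made up 93.2% of the broad regions, 75.6% of the other broad peaks and 77.1% of the narrower peaks. The difference from the other broad peaks was thus smaller without arrays, and that from the narrower peaks was larger.

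The sequence of the broad regions was rich in GC and CpG. Their median GC content was 64.0% (quartiles 60.6% and 67.1%), against 62.1% in narrower peaks of all 4 libraries, 64.0% in the other broad peaks and 60.2% in all peaks. The observed over expected CpG ratio, which is low where CpG has been lost through methylation, had a median of 0.744, against 0.703, 0.616 and 0.566. Without arrays it was 0.760 in broad regions and 0.750 in the other broad peaks. By kind it was 0.766 at promoters, 0.567 in arrays and 0.293 in the remaining 19 regions. Arrays were repeat-masked over a median of 97.9% of their length and promoters over 4.76%.

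Features linked with R-loops in textbooks were also counted. Possible G-quadruplexes, searched on both strands as 4 runs of at least 3 G with 1 to 7 bases between runs, occurred 1.29 times per kb in broad regions, 1.19 times in narrower peaks of all 4 libraries, 0.648 times in other broad peaks and 0.793 times in all peaks. Without arrays the values were 1.44, 1.22, 1.06 and 0.878 per kb. GC skew, the excess of G over C on the coding strand divided by their sum, had a median of 0.078 in the 500 bp after the start of the 248 broad regions with a coding start. It was -0.032 in the 500 bp before the start. The skew after the start was above 0 in 75.4% of these regions, in 77.9% of the narrower peaks of all 4 libraries and in 70.2% of all peaks with a coding start. The broad regions thus had no larger skew than narrower reproducible peaks.

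Short promoter motifs were counted on both strands in RefSeq windows of 300 bases (250 before and 50 after a coding start, GRCm38.p6), with 229 windows whose start lay in a broad region other than an array. The GC box GGGCGG was in 82.5% of them, against 48.0% of 16522 windows of all coding genes. The value was 78.7% for narrower peaks of all 4 libraries and 83.0% for other broad peaks. The box CCAAT was in 52.4%, against 38.7% of all windows, 55.2% for narrower peaks and 41.7% for other broad peaks. TATAAA was in 4.80%, against 12.9% of all windows, 4.33% for narrower peaks and 2.78% for other broad peaks. The ETS core CCGGAAG was in 12.7%, against 12.3% of all windows, 16.4% for narrower peaks and 14.9% for other broad peaks. In the same order, the NRF1 motif GCGCATGCG was in 3.49%, against 2.52%, 5.22% and 3.1%. The YY1 motif AAGATGGCG was in 4.37%, against 2.05%, 2.24% and 4.51%. The E-box CACGTG, the last motif searched, was in 12.2%, against 8.11%, 11.6% and 7.29%. The windows also differed in base composition. Median GC content was 66% in broad regions, 57% in all coding genes, 63.3% for narrower peaks and 66.7% for other broad peaks. The median number of CpG was 25, 14, 23 and 27 in the same order. The part of base composition in the motif shares was not tested. A match is a stretch of letters and not a bound site.

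Depth is unknown, since the lists hold peaks and not reads, and the 4 RNH lists differed more by replicate number than by genotype. Replicate 1 held 22336 peaks in WT and 25392 in TKO, and replicate 2 held 6612 and 6458. The median peak width was 470, 306, 445 and 234 bp in WT replicates 1 and 2 and TKO replicates 1 and 2. Peaks of at least 1000 bp numbered 1077, 41, 1244 and 17 in the same order. The shortest peak listed was 315, 239, 292 and 172 bp long. Of 35 pluripotency genes, 21, 4, 18 and 3 had a peak at a start, and of 11 fibroblast markers 4, 1, 4 and 1; peaks do not give expression, so the labelled cell type cannot be checked from them.

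The covered width of the broad regions followed the same order. Peaks of WT replicate 1 covered them wholly, by the rule, with a median of 1127.5 bp and a range of 1000 to 2316 bp. Peaks of TKO replicate 1 covered a median of 974 bp (85.7% of the region), those of WT replicate 2 covered 472 bp (41.6%) and those of TKO replicate 2 covered 345.5 bp (29.5%). TKO replicate 1 exceeded both libraries of replicate 2 in 280 of 308 regions. A peak of at least 1000 bp of its own met 143 of the regions in TKO replicate 1, 11 in WT replicate 2 and 0 in TKO replicate 2. Apart from WT replicate 1, where the rule sets it, a width of 1000 bp was thus reached in under 50% of the regions in TKO replicate 1 and in few or none in replicate 2.

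**Figure D2:**
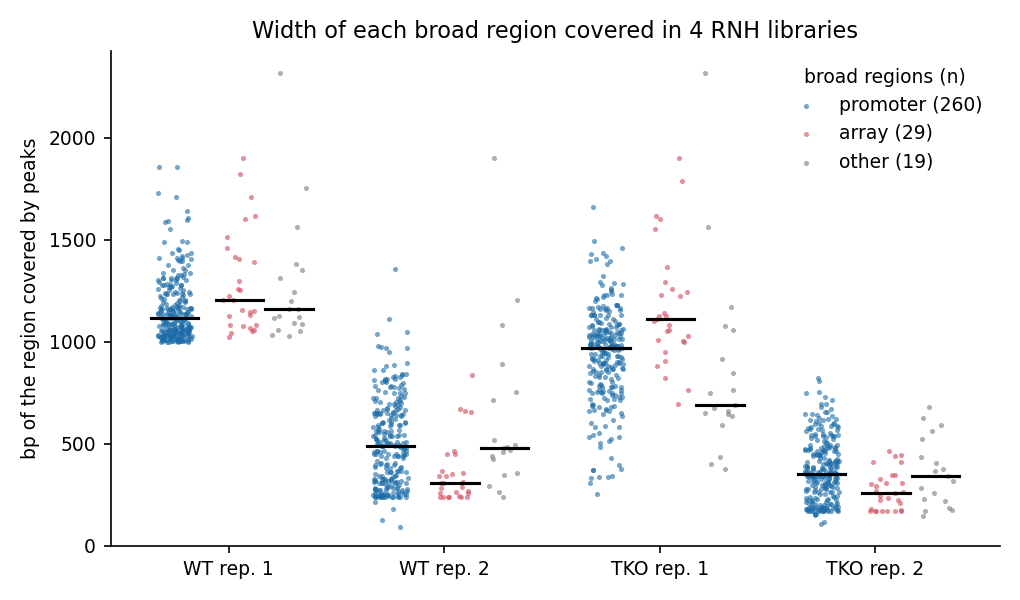
Covered bp of each broad region (vertical axis) in the 4 RNH libraries, with 1 point per region, colours for the 3 kinds and black bars for medians. Medians over all 308 regions are 1127.5, 472, 974 and 345.5 bp from left to right, so the replicate 1 libraries of WT and TKO lie above both replicate 2 libraries.

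Between genotypes the covered width is given as a description, since the rule fixed it in WT replicate 1 and 2 libraries per genotype allow no exact permutation p below 0.33. The mean log2 of the library medians differed by -0.33 (TKO minus WT), a ratio of 0.795, and the standard deviation between the libraries of a genotype was 0.89 in WT and 1.06 in TKO on the same scale (n = 2 each). Within replicate 1 the TKO to WT ratio was 0.864 and within replicate 2 it was 0.732, beside ratios of 0.947 and 0.765 for the median width of all peaks of those lists. A smaller share of cells with an R-loop and a weaker signal per cell cannot be told apart in such bulk libraries. WT replicate 1 is high by construction: with regions chosen instead by a width of 1000 bp in TKO replicate 1, the log2 difference was -0.03. TKO replicate 1 is then high by construction in its turn. Its median was 1137 bp there, beside 987.5 bp in WT replicate 1, 416 bp in WT replicate 2 and 347 bp in TKO replicate 2. Those 268 regions shared 141 with the 308 (45.8% of the 308 and 52.6% of the 268).

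Fold enrichment over background is the authors' own value for each peak. Its median over the regions was 4.41 in WT replicate 1, 4.61 in WT replicate 2, 4.45 in TKO replicate 1 and 4.82 in TKO replicate 2. Ranked within each library's own list, the median region stood at percentile 76.3, 63.5, 74.3 and 56.7. By -log10 q it stood at percentile 88.5, 74.3, 87.9 and 64.1. The median region thus stood above the middle of each of the 4 lists. Width and presence chose the regions, and the highest peak was taken in each library, so such a rank may be partly set in advance. Median fold in WT replicate 1 was 4.37 in the other broad peaks and 4.15 in narrower peaks of all 4 libraries. Values from lists called separately are not compared between genotypes.

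Regions with the highest smallest fold over the 4 libraries were led by Stxbp5l, with folds of 7.40 and 6.19 in WT replicates 1 and 2 and of 7.00 and 7.88 in TKO replicates 1 and 2. Sfr1 had 5.78, 7.20, 6.26 and 5.56 in the same order, and Rab39 had 5.58, 8.21, 5.34 and 6.25. The intronic repeat of Usp6nl had 5.43, 5.89, 5.85 and 5.38, the only region of the third kind among the top 10. The others were the promoters of 1700016H03Rik beside the ubiquitin ligase gene Btrc, of Syt14, of the Integrator subunit gene Ints13, of Kbtbd3 and of the phosphatase regulator gene Ppp2r5a, and the array near Gm43666. Their smallest folds ran from 5.06 to 5.49.

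In TKO replicate 2 no region was covered over more than 824 bp. In 24 of 308, each of the other 3 libraries covered at least 50% of the region. The promoter of 4932412D23Rik inside Zbtb20, a zinc finger repressor gene, led with 967 of 1011 bp covered in WT replicate 2, 867 in TKO replicate 1 and 640 in TKO replicate 2. The histone acetyltransferase gene Kat6b followed with 1050, 689 and 824 of 1139 bp, and Opa3, a gene of mitochondria, with 979, 661 and 712 of 1093 bp. In both Kat6b and Opa3 TKO replicate 2 covered more than TKO replicate 1, which went against the general order. The other 7 were Agpat1 (phosphatidic acid synthesis), Syt14, Rrm2b (a subunit of ribonucleotide reductase), Rab40c, Fah (tyrosine breakdown), Mon1b and Mesd (a chaperone of lipoprotein receptors), with smallest covered shares between 56.6% and 59.3% for Syt14 to Mesd and 60.4% for Agpat1.

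The widest region was a peak of 2316 bp on chromosome Y (90742208 to 90744523), 9443 bp from the start of the pseudogene Mid1-ps1. It was covered over 2316 bp in TKO replicate 1, 1900 bp in WT replicate 2 and 365 bp in TKO replicate 2, and in each of the 4 libraries it had the lowest fold of the 308 regions (2.08, 2.42, 2.06 and 2.14 in WT replicates 1 and 2 and TKO replicates 1 and 2). The widest promoters were those of the phosphatase gene Ppm1b and of Klf12, a Krüppel-like repressor, at 1856 bp each. The promoter region of Gm20634 and the histone genes Hist2h2aa1 and Hist2h3c1 followed with 1732 bp. Next came Pigp, of the pathway that makes membrane lipid anchors, with 1711 bp and Gpbp1, a promoter-binding factor, with 1642 bp. At the edge of the width rule, the narrowest members were Mcee (1000 bp), Aldh9a1 (1000 bp) and Atl3 (1001 bp), and the widest peaks outside were those near Tle4 (999 bp), Fubp3 (998 bp) and 2410017I17Rik (998 bp). WT replicate 2 covered 386, 501 and 312 bp of the former and 340, 672 and 559 bp of the latter. The covered widths of these few regions thus overlapped, and they cannot show whether the groups as a whole differ.

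Between the replicate 2 libraries, whose width the rule did not use, TKO covered less of the region than WT in 225 regions and more in 83 (26.9%). TKO covered more in 27.6% of the narrower peaks found in all 4 libraries, a share close to that of the broad regions. The largest excess of TKO was at Kctd7 (91 bp in WT and 360 bp in TKO), Cpsf4l (125 and 347 bp), Drc3 (250 and 585 bp), Ska2 (268 and 621 bp) and Extl2 (327 and 680 bp). The last 3 are divergent pairs, with Tom1l2, Prr11 and Slc30a7. The largest excess of WT was at Ppp2r3d (972 bp in WT and 114 bp in TKO), the chromosome Y region (1900 and 365 bp), an intron of C77080 (716 and 145 bp), Btbd7 (843 and 172 bp) and Orc4 (825 and 172 bp), a subunit of the origin recognition complex. In replicate 1, TKO covered 1459 of 1599 bp at Ppp2r3d and all 2316 bp of the chromosome Y region. At C77080, Btbd7 and Orc4 TKO replicate 1 covered less, with 375 of 1381 bp, 779 of 1409 bp and 785 of 1184 bp.

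Position relative to the start differed by replicate as well. For the 247 promoter regions with a coding start, the share covered at the start itself was 96.8% in WT replicate 1, 92.7% in TKO replicate 1, 55.5% in WT replicate 2 and 38.1% in TKO replicate 2. In both replicate 2 libraries cover was highest 175 bp upstream of the start, at 66.8% in WT and 62.3% in TKO. In replicate 1 it was highest 25 bp upstream (WT, 97.2%) and 25 bp downstream (TKO, 94.3%). At 500 bp upstream, 70.4%, 53.0%, 25.1% and 21.9% were covered in WT replicate 1, TKO replicate 1, WT replicate 2 and TKO replicate 2, and at 500 bp downstream 49.4%, 42.9%, 15.0% and 6.88%. Leaving out divergent pairs (194 regions) kept the maxima of WT replicate 2 and TKO replicate 2 at 175 bp upstream, with 63.9% and 60.3%.

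**Figure D3:**
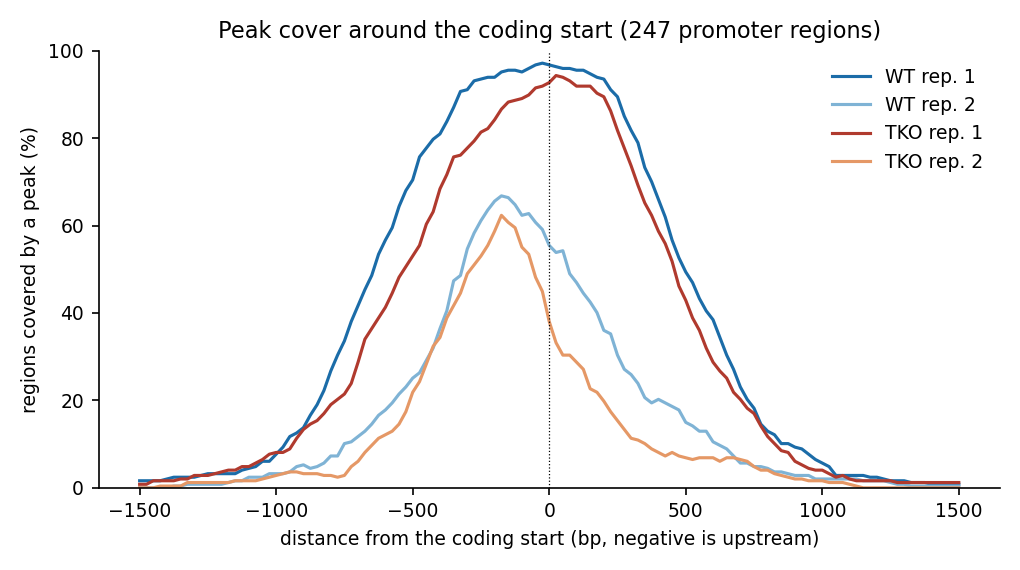
Share of the 247 promoter regions covered by a peak (vertical axis, percent) against distance from the coding start (horizontal axis, bp, on the gene's strand), with 1 line per RNH library. Lines of replicate 1 peak within 25 bp of the start and those of replicate 2 peak 175 bp upstream, in WT and TKO alike.

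The peaks of WT replicate 1 reached to both sides of the start. In the 239 regions with a coding start inside, they extended a median of 639 bp upstream and 499 bp downstream. Without divergent pairs (187 regions) the medians were 599 and 565 bp, and 47.1% reached further downstream than upstream. A start inside the peak and a width of at least 1000 bp were required here, so some reach to both sides was set in advance. The extents are those of WT replicate 1, whose width the rule used.

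The arrays behaved as a group of their own. WT replicate 1 and TKO replicate 1 covered medians of 1206 and 1113 bp of the 29 arrays, and WT replicate 2 and TKO replicate 2 covered 308 and 259 bp. Relative to the region, TKO replicate 1 covered 92.7% of an array and 85.8% of a promoter, whereas WT replicate 2 covered 25.2% and 42.8% and TKO replicate 2 covered 20.2% and 31.3%. TKO replicate 2 covered more than WT replicate 2 in 9 of the 29. The array on chromosome 12 near Gm48368, the widest, was covered over 1901, 309, 1901 and 262 bp in WT replicates 1 and 2 and TKO replicates 1 and 2. The second, on chromosome X near Gm14505, was covered over 1822, 838, 1788 and 182 bp.

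A search of build GRCm38 found 1390 arrays of this unit length of at least 500 bp, with a median length of 712 bp and a GC content of 64.6%. Of these, 1266 (91.1%) met a peak of WT replicate 1, 1286 (92.5%) a peak of TKO replicate 1, 245 (17.6%) a peak of WT replicate 2 and 137 (9.86%) a peak of TKO replicate 2. Each nuclease-only control met 1. Peaks in all 4 RNH libraries met 53 arrays (3.81%), and 96 met no peak of replicate 1 of either genotype. The share of each list's peaks that lay on an array was 6.00%, 3.84%, 5.22% and 2.11% in WT replicates 1 and 2 and TKO replicates 1 and 2. Most arrays of this unit length thus met a peak in replicate 1 of both genotypes, and few did in replicate 2. The part of list length in this difference was not tested, and identity to the unit was measured for the 29 broad arrays alone.

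**Figure D4:**
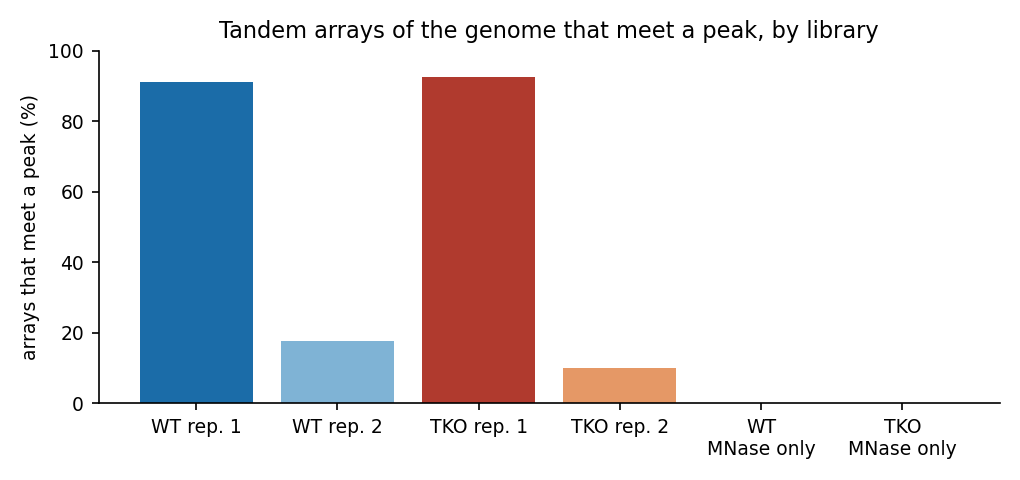
Share of the 1390 arrays with a 212 bp unit that meet a peak (vertical axis, percent) in each of the 6 MapR libraries. Replicate 1 of WT and TKO reaches 91.1% and 92.5%, replicate 2 reaches 17.6% and 9.86%, and the nuclease-only bars stand for 1 array each.

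Genes with a broad region at a start were compared with lists of known function. Of 21924 coding genes, 307 (1.40%) had a broad region within 1 kb of a start. Ddx5, a helicase that unwinds RNA-DNA hybrids, was the 1 of 29 R-loop processing genes with such a region, and 19 of the 29 had a control-free peak of any width in WT replicate 1. Its promoter was covered over 1037, 363, 1037 and 331 bp in WT replicates 1 and 2 and TKO replicates 1 and 2. Srsf2, a splicing factor that shares its promoter with Mfsd11, was the second of 43 housekeeping and translation genes beside Ddx5, with 1133, 239, 1133 and 183 bp. Zfc3h1, a scaffold of the nuclear RNA decay complex that shares a promoter with Thap2, was the 1 of 24 nuclear RNA decay genes (1146, 478, 1146 and 346 bp).

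Of 67 core histone genes, 4 had a broad region, and they are the 2 neighbouring copies of a gene pair on chromosome 3. Hist2h2aa1 with Hist2h3c1 lay in a region of 1732 bp (96245155 to 96246886), and Hist2h2aa2 with Hist2h3c2 in one of 1063 bp (96239560 to 96240622). These regions matched each other over at least 300 bp at 80% identity or more, so reads may not separate them. They were covered over 1732, 667, 1398 and 413 bp and over 1063, 487, 830 and 157 bp in WT replicates 1 and 2 and TKO replicates 1 and 2. Another set of 3 similar regions consisted of Ppp2r5a on chromosome 1 and Gm13244 and Gm13169 on chromosome 4.

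Among the other lists, the imprinted ubiquitin ligase gene Ube3a (1 of 36 imprinted genes) had covered widths of 1116, 245, 900 and 175 bp and a fold of 7.03 in WT replicate 1. Rmrp, the RNA of RNase MRP, was the 1 of 21 small nuclear and structured RNA genes, in a region of 1130 bp that it shares with Ccdc107. Vim, the intermediate filament vimentin, was the 1 of 11 fibroblast markers. No member with a broad region was found among 35 pluripotency genes, of which 21 had a narrower or less reproducible control-free peak in WT replicate 1, among 78 ribosomal protein genes (32), 34 immediate early and stress genes (18), 23 genes of the m6A pathway (20), 9 linker histone H1 genes (5), 21 snoRNA host and nuclear long non-coding RNA genes (8), or the 6 markers each of endoderm (3), mesoderm (1) and neuroectoderm (4). With 1.40% of all coding genes as the background, a count of 0 in lists of this length is no result about them.

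On the chromosomes, the broad regions were spread widely. Chromosome 11 held 30 (9.74%, against 6.62% of control-free peaks), none of them an array, and chromosome 1 held 27. Chromosome X held 2, both arrays, or 0.649% against 2.82% of control-free peaks. Between 90 and 100 Mb of chromosome 14, where WT replicate 1 had 251 control-free peaks, there were 0. Broad regions were 308 of all 21929 control-free peaks, so few would be due among 251, and the 0 is no result about this block.

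The authors' deposited cheRNA table was then set against the regions. Every transcript in it has an absolute log2 value of at least 1.00, and it gives no p-value. The file does not name the numerator, and the direction was inferred from the transcripts of 3 H1 genes, whose deposited values are positive. All signs were therefore reversed, and values below read as TKO over WT. In the table, 37 transcripts overlapped 32 of the broad regions (10.4%, against 11.1% of all control-free peaks). Of the 32, 16 lay under transcripts higher in TKO and 16 under lower ones, or 5.19% each, beside 5.14% and 6.06% of all control-free peaks of WT replicate 1. The shares were thus near the background. By class, 14 of 22 gene transcripts were lower, and 6 of 9 intergenic transcripts and 2 of 2 bidirectional ones were higher. In the whole deposited table, 1597 of 2904 gene transcripts were lower, and 1434 of 1937 intergenic and 158 of 185 bidirectional transcripts were higher, so the classes leaned the same way there.

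On the higher side, the authors' deposited table, with the sign reversed, gave a log2 TKO over WT of 3.78 to an intergenic transcript named for Rab3c, over an intergenic broad region 83889 bp from the nearest start, that of Pde4d. Rgs17, whose transcript ends in the region at the promoter of Mtrf1l, had 2.83, a transcript on the 5′ side of Actl6a, a chromatin remodelling subunit, had 2.67, Vim had 2.25, and Meioc, a gene of meiosis, had 1.82. A bidirectional transcript at Ezh2, the methyltransferase of Polycomb complex PRC2, had 1.62. On the lower side, the authors' deposited table, with the sign reversed, gave -3.62 to an intergenic transcript named for Zfp648, -2.99 and -2.96 to a 5′ and an intergenic transcript at Klf12, -2.95 to Gpr4, which runs into the region at Opa3, -2.53 to Aim1l at Crybg2, and -2.09 to Vgll3, a transcriptional cofactor. Abcb1a, a drug efflux pump, was the 1 gene with an array under a listed transcript (-1.55).

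The region at Klf12 was covered over 1856 and 1359 bp in WT replicates 1 and 2 and over 749 and 493 bp in TKO replicates 1 and 2, so that both TKO libraries covered less than both WT libraries. Such an order was found in 22 of the 308 regions (7.14%), beside 4.26% of all control-free peaks of WT replicate 1 and 12.5% of the narrower peaks found in all 4 libraries. The opposite order cannot occur, since WT replicate 1 covers its own peaks wholly. At Vim, where the transcript was higher, TKO also covered less, with 1313 and 510 bp in WT and 341 and 189 bp in TKO. A higher transcript therefore did not go with a wider region there. Vim was the 1 of 11 fibroblast markers listed in the deposited table, with 0 lower.

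In TKO replicate 1, the 16 regions under higher transcripts were covered over a median of 94.6% of their width (quartiles 77.5% and 96.2%), and the 16 under lower transcripts over 61.1% (51.2% and 70.3%). Regions with no listed transcript stood at 86.1%. The groups overlapped, with ranges of 26.0% to 100% and 25.9% to 100%. In TKO replicate 2 the median shares were 32.5% under higher transcripts (quartiles 25.1% and 40.5%) and 25.9% under lower ones (21.8% and 35.1%). That is the same direction with a smaller gap and overlapping quartiles. In WT replicate 2 they were 40.2% and 44.0%, the other direction. The median log2 TKO over WT of covered bp within replicate 2 was -0.41 under higher and -0.36 under lower transcripts, and TKO covered more than WT in 5 of 16 regions of each group. Narrower peaks found in all 4 libraries showed no such gap in TKO replicate 1, with 85.9% covered under 81 higher and 86.0% under 50 lower transcripts. A gap of the size seen in TKO replicate 1 rests on that 1 library and was not tested.

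**Figure D5:**
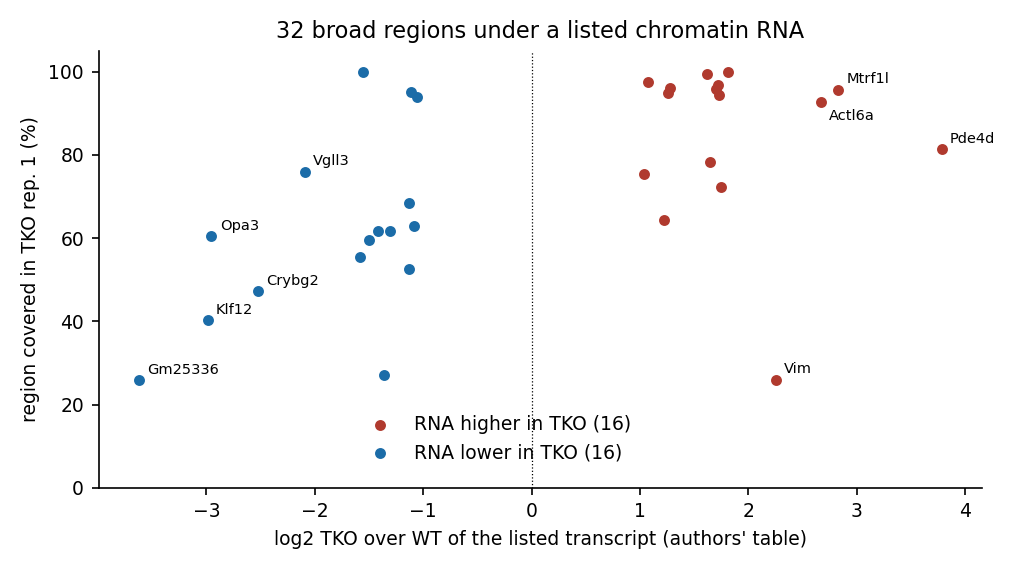
Share of each broad region covered in TKO replicate 1 (vertical axis, percent) against the log2 TKO over WT of the listed transcript with the largest absolute value over it (horizontal axis), for 32 regions. The 16 regions under higher transcripts have a median of 94.6%, with Vim far below, and the 16 under lower transcripts a median of 61.1%.

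With width measured in TKO replicate 1 instead, 16 of the 268 regions lay under higher transcripts and 2 under lower ones, beside 5.34% and 5.03% of all control-free peaks of TKO replicate 1. These are 5.97% and 0.746% of the regions. Broad regions under a transcript lower in TKO were thus found mostly when breadth was required in WT replicate 1, which is the library that the rule reads. With 1 library per genotype of this breadth, genotype and library cannot be told apart here.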

How the data were processed

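MapR peak lists of 6 libraries (4 RNH, 2 nuclease-only) and 1 cheRNA table were used, and the samples of other assays were not analysed here. Per the submitters' processing notes, BWA and MACS2 were used for MapR with build mm10; tool versions, control library and options were not given in the sources used here. Fragments of 200 to 1000 bp were purified, per the labels' protocols. The authors deposited 1 list per library, with each peak's fold enrichment (a ratio), its -log10 p and -log10 q, a score that is 10 times its -log10 q rounded down, and the summit's distance from the peak start; fold and score describe peaks within 1 list. The cheRNA table holds log2 fold changes computed by the authors, for which TopHat2, SAMtools, bedtools and DESeq2 are named in the same notes. The lists give no depth, so counting error has no interval here.

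The members and lists were chosen with earlier results of these data known. Overlaps counted from 1 bp. Covered bp is the part of a WT replicate 1 peak under peaks of a library, and fold and -log10 q are the highest of those peaks. Genotypes were compared by log2 medians of covered bp; a two-sided exact permutation test was computed and is not read, since it cannot reach 0.05 and its values include the width used for selection. Annotation was GENCODE release M21, with RefSeq sequence of GRCm38. Arrays were found by self-match at 212 bp with a minimum of 60%, and in the genome in bins of 100 bp with a minimum length of 500 bp; other unit lengths from 20 to 500 bp were searched in the regions. Similar regions were grouped by blastn 2.17.0 (80% identity over 300 bp). Python 3.11.15, numpy 2.4.6, pandas 2.3.3 and pysam 0.24.0 were used, and functions were tested on simulated data.

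Named regions are the 10 widest, the 10 with the highest smallest fold, the 10 with the highest smallest covered share, the 5 highest and 5 lowest by replicate 2 covered bp (TKO over WT) and by listed transcript, up to 4 per gene list, and 3 on each side of the width limit. A region is called by the gene with a start within 1 kb of its summit, otherwise by the gene it lies in or the nearest start. Ezh2, Abcb1a, Ak5, Stam2, Atp6v1h, Gm13244, Gm13169, the divergent partners and the examples printed as sequence were named after values were seen. The replicate numbers are not stated to pair libraries. Alternatives changed the width limit, the overlap, the q threshold, the controls, the library that sets the width, the promoter window and the libraries required.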

Additional observations from a re-analysis of the deposited data

How the results depend on the processing

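The number of broad regions depended on the limits: 700 at a width of 800 bp, 19 at 1500 bp, 113 with a -log10 q of at least 5 in the other libraries, and 24 with at least 50% of the peak covered in each library. It was 268 with the width measured in TKO replicate 1, 348 with control peaks not considered, and 311 to 486 when 1 of the other libraries was not required, the latter without TKO replicate 2. The share at promoters was 52.6% at 1500 bp, 96.5% with the q threshold and 93.2% without arrays, the last chosen after seeing the data. It ran from 71.0% (without TKO replicate 2) to 84.9% when a library was not required. The other 4 alternatives stayed within 80.3% to 88.3%, the 95% Wilson interval of the main value. That interval treats regions as independent, which they are not, and alternatives reuse the same regions. It is therefore a guide to size only and no measure of agreement. The share under a listed transcript was 6.72% with the width measured in TKO replicate 1 and 7.14% when at least 50% of the region had to be covered. Median GC content was 64.7% at 1500 bp, 65.5% with TKO replicate 1 and 64.8% for 250 bp on both sides of the summit. The number of arrays was 29 and 28 at a match of 50% and 70%, and 29 to 103 when a library was not required (48 without WT replicate 2, 103 without TKO replicate 2), settings added after seeing the data.

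The log2 difference in covered width, TKO against WT, ran from -1.08 to 0.42 when a library was left out. It turned to 0.30 without WT replicate 1 and to 0.42 without TKO replicate 2. The replicate block, the mean of the differences within each replicate number, gave -0.33. It equals the main value by arithmetic and is no separate check. The other 7 alternatives ran from -0.51 to -0.03. No p is read from these values, since the smallest exact permutation p with 2 libraries per genotype is 0.33. The values also include the library whose width chose the regions, except where WT replicate 1 was left out. That library was WT replicate 1, or TKO replicate 1 in the alternative that measured width there. The lists do not give read depth, and its part in the width and number of peaks was not tested.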
